A study of Mus musculus with 8 samples.

Results

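The genes of MHC class II antigen presentation were followed in the jejunal mucosa of mice with and without an adipocyte deletion of FFA2, the free fatty acid receptor encoded by Ffar2. They were a fixed set of 10 gene symbols, named by their role in the pathway, and each matched 1 of the 56980 gene identifiers in the count files. These were the chains of the presenting molecules (H2-Aa, H2-Ab1, H2-Eb1 and H2-Eb2), the invariant chain (Cd74), the peptide loading genes (H2-DMa, H2-DMb1, H2-DMb2 and H2-Oa) and the transactivator (Ciita). Of the 10, 8 had enough reads to be tested among 15986 genes, and H2-Oa and H2-Eb2 did not. The controls were FFA2 fl/fl males, which carry floxed Ffar2 alleles without Cre, and the Adipoq-F2-KO males were their littermates with the same floxed alleles and a Cre driven by the adiponectin promoter, which is active in adipocytes. The former are called controls or floxed libraries and the latter knockouts. Both genotypes were raised together on chow until 12 weeks of age, then ate a Western diet with 10% fructooligosaccharides (a fermentable fiber) for 2 weeks in thermoneutral housing. RNA was sequenced from scraped jejunal mucosa in 4 libraries per genotype, so each value is a mixture of epithelium, immune cells and stroma. In such bulk tissue, more cells that express a gene and more RNA per cell cannot be told apart.

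Class II molecules are pairs of an alpha and a beta chain that carry peptides from engulfed material to the surface, where CD4 T cells read them. The invariant chain Cd74 fills the groove until the vesicle is reached, H2-DM then removes its remnant and edits the peptides, and H2-DO, made of H2-Oa and H2-Ob, restrains H2-DM, mainly in B cells. Dendritic cells, B cells and some macrophages make class II at all times, and the small intestinal epithelium makes it under interferon gamma. Ciita does not bind DNA itself but joins the RFX, NF-Y and CREB proteins assembled on the X and Y boxes of class II promoters.

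The libraries held 6007654 to 21712776 counts, and 3 of them (floxed 3, Adipoq-F2-KO 3 and 4) held fewer than 10000000. Markers of smooth muscle, the tissue under the mucosa, set floxed library 3 apart, with a summed normalized count of 20797 against 267 to 7234 in the other libraries. Ffar2 itself had 2 to 18 raw counts in the controls and 3 to 13 in the knockouts, and since it was deleted in adipocytes only, its level in mucosa does not check the genotype. A normalized count is a raw count divided by the size factor of its library, which removes differences in sequencing depth.

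The class II genes lie close together. By GENCODE M21 (assembly GRCm38), 8 of the 10 are on chromosome 17 between 34092340 and 34341412, H2-Oa first and H2-Eb2 last, while Ciita is at chr16:10480059-10528418 and Cd74 is on another chromosome. Promoter sequence of 300 bases was at hand from RefSeq (GRCm38.p6) for H2-Oa, H2-DMa, H2-DMb2, H2-DMb1, H2-Aa, H2-Eb1 and H2-Eb2 and for H2-Ob, and H2-Ab1, Cd74 and Ciita had no entry. The X and Y boxes were searched because they are where Ciita is recruited, as an X1 core with the letters GNNACNNAT followed after 10 to 30 bases by a Y core with the letters ATTGG, both on the strand of the gene. The pair was found in H2-Eb1, H2-Eb2, H2-DMb1 and H2-Ob, and in 93 of 32851 promoters in all (0.283%). The stretches of H2-Eb1, H2-Eb2 and H2-Ob, which hold both cores, are shown with the cores in capitals. They come from the plus strand at chr17:34305756-34305845, chr17:34325523-34325612 and chr17:34238798-34238887.
H2-Eb1: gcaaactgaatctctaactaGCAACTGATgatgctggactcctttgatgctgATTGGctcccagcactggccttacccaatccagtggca
H2-Eb2: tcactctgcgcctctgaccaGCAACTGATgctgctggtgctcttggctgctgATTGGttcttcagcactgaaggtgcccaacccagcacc
H2-Ob: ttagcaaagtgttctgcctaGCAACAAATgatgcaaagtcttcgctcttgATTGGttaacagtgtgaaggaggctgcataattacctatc
The same 9 letters, gcaactgat, formed the X1 core of H2-Eb1 and H2-Eb2, and 23 bases separated it from the Y core in both. In H2-Ob the gap was 21 bases. In H2-DMb1 it was 24 bases, with the X1 core at -94 and the Y core at -61 from the start site, and that stretch is not shown because it lies in an annotated exon. Promoters with a Y core and no X1 core at that spacing were those of H2-Aa, H2-DMb2, H2-Oa and 1 of the 2 start sites of H2-DMa. Those of H2-Aa (minus strand, chr17:34287842-34287931) and H2-DMb2 (plus strand, chr17:34145099-34145188) are shown for comparison, with the Y core in capitals.
H2-Aa: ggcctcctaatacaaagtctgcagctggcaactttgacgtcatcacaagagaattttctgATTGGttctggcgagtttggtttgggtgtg
H2-DMb2: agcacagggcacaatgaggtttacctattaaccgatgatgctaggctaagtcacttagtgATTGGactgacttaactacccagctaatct
The longer Y box CTGATTGG was present in H2-Oa, H2-Aa, H2-Eb1 and H2-Eb2 and in 4.1% of all promoters searched on both strands. The cores alone were common, at 37.4% of promoters for the Y core and 25.3% for the X1 core on either strand, and the Y core lies within the longer Y box. The windows of both H2-DMa start sites held no such pair. A GAS site (gamma-activated sequence), the letters TTCNNNGAA, matched in H2-DMb2 among these genes and in 8.3% of all promoters. A match describes letters in a window and is not evidence of binding.

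The invariant chain and the presenting chains H2-Ab1, H2-Aa and H2-Eb1 were the most abundant of these genes. The loading genes and Ciita followed at lower levels, and the presenting chain H2-Eb2 stood at the low end. Per kb of exonic length, Cd74 had a mean normalized count of 6116 over the 8 libraries, H2-Ab1 of 1536, H2-Aa of 1077 and H2-Eb1 of 1028. H2-DMb1 followed at 244 per kb, H2-DMa at 105 and Ciita at 50.8. At the low end H2-DMb2 had 12.8 per kb, H2-Oa 3.73 and H2-Eb2 3.00. Each gene lay above the next of this order in all 8 libraries, except that H2-Aa lay above H2-Eb1 in 5 of 8 and H2-Oa above H2-Eb2 in 5 of 8, so the order within those pairs was not resolved. The alpha chain that pairs with H2-Eb1 was not distinguished from absence at this depth. Its gene H2-Ea, annotated as a pseudogene in this assembly, had at most 2 raw counts in any library, under the floor of 3 counts, against at least 815 for H2-Eb1.

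H2-Ab1 and H2-Aa, the beta and alpha chains of the I-A molecule, differed several-fold between the controls, through the low value of floxed library 1. They differed less between the knockouts. H2-Ab1 had normalized counts of 824.5, 2678, 4427 and 3796 in floxed libraries 1 to 4 and of 5976, 5467, 5021 and 3373 in Adipoq-F2-KO libraries 1 to 4. Floxed library 1 stood lowest, Adipoq-F2-KO libraries 1 to 3 stood above every floxed library, and Adipoq-F2-KO library 4 lay within the floxed range, so the genotypes overlapped. The group means were 2931 ± 1580 (SD, n = 4) for the controls and 4959 ± 1127 (SD, n = 4) for the knockouts, a log2 fold change of 0.76 with an SE of 0.51. H2-Aa was at 585, 2701, 4653 and 3883 in the 4 controls and at 6730, 6087, 5212 and 2867 in the 4 knockouts. It followed the same order of libraries at the bottom and the top, with floxed 1 lowest and Adipoq-F2-KO 1 highest. Its log2 fold change was 0.82 with an SE of 0.62. Relative to H2-Ab1, H2-Aa was at 70.9% in floxed library 1 and at 85.0% to 113% in the other 7.

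H2-Eb1, the beta chain of the I-E molecule, was at 552, 1438, 1968 and 1964 in the 4 controls and at 3138, 2963, 2425 and 1532 in the 4 knockouts. Again 3 of 4 Adipoq-F2-KO libraries lay above every floxed one and library 4 did not. The log2 fold change was 0.77 with an SE of 0.44. Cd74, the invariant chain, was at 2123, 7292, 11470 and 10207 in the 4 controls and at 15463, 15686, 12193 and 7723 in the 4 knockouts, a log2 fold change of 0.72 with an SE of 0.53. Of 6 genes set against H2-Ab1, Cd74 held the steadiest ratio, between 229% and 287% of its normalized count in every library, while H2-Ab1 itself spanned 7.25-fold.

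The loading genes H2-DMa and H2-DMb1, whose products pair to form H2-DM, showed the same arrangement. H2-DMa was at 145, 270, 309 and 399 in floxed libraries 1 to 4 and at 526, 556, 414 and 273 in Adipoq-F2-KO libraries 1 to 4. The genotypes overlapped because Adipoq-F2-KO library 4 lay below 2 floxed libraries. H2-DMa had the narrowest spread of the 10 genes, 3.84-fold from lowest to highest library, and its log2 fold change of 0.66 (SE 0.30, 95% interval 0.07 to 1.26) gave an unadjusted DESeq2 p of 0.0279. It shares 360 of its 3448 exonic bases with Brd2 on the other strand, and the strand setting of the counting was not stated. Brd2 had 18626 counts in all against 3328 for H2-DMa, and its own log2 fold change was 0.11 with an SE of 0.09. H2-DMb1 was at 76.3, 266, 489 and 378 in the 4 controls and at 661, 583, 563 and 265 in the 4 knockouts, with a log2 fold change of 0.78 and an SE of 0.58. H2-DMb1 and its paralog H2-DMb2 share part of their sequence, and 15.8% of the 75-base windows of H2-DMb1 transcripts also occur in H2-DMb2, so reads there could not be assigned to 1 of them.

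Ciita, the transactivator of the other genes, was at 93.3, 409, 431 and 584 in the 4 controls and at 557, 819, 633 and 350 in the 4 knockouts. Only Adipoq-F2-KO libraries 2 and 3 lay above every floxed library, and floxed library 1 was again lowest. Its log2 fold change was 0.64 with an SE of 0.56. Ciita shares 329 of 9535 exonic bases with Dexi on the other strand, which had 768 counts in all against 4419.

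A second set of genes, at far lower counts, followed another order of libraries. H2-DMb2, the second beta chain of H2-DM, was at 1.82, 35.3, 27.2 and 2.32 in floxed libraries 1 to 4 and at 11.1, 50.2, 26.0 and 24.4 in Adipoq-F2-KO libraries 1 to 4. It was highest in library 2 of each genotype. Floxed library 4, which was among the higher controls for H2-Aa, H2-Ab1 and H2-Eb1, was close to the lowest for H2-DMb2. Its log2 fold change was 0.77 with an SE of 0.83 and moved with single libraries. It was 0.30 without Adipoq-F2-KO library 2, 0.39 and 0.41 without floxed libraries 1 and 4, and 1.61 without floxed library 2 (unadjusted DESeq2 p 0.0539). H2-DMb2 ranged from 0.613% to 13.3% of H2-DMb1 between libraries. Raw counts of H2-Oa, the alpha chain of H2-DO, were 1, 19, 0 and 0 in the 4 controls and 3, 22, 3 and 5 in the 4 knockouts, so library 2 of each genotype held most of the reads. H2-Eb2, a second beta chain gene next to H2-Eb1, had raw counts of 2, 29, 6 and 1 and of 12, 46, 4 and 3 in the same order. Its normalized count was again highest in library 2 of both genotypes.

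H2-Ob, the partner of H2-Oa and not one of the 10 genes, had this pattern too, at normalized counts of 3.63, 48.5, 10.5 and 3.87 in the 4 controls and of 11.8, 73.2, 30.03 and 41.4 in the 4 knockouts. Its log2 fold change was 1.21 with an SE of 0.80 (adjusted DESeq2 p 0.9998). Without floxed library 2, the only floxed library with a high level, the log2 fold change was 2.89 with an adjusted DESeq2 p of 0.0386. In that fit the remaining controls held 6, 5 and 5 raw counts of H2-Ob and the knockouts 15, 118, 15 and 22. H2-Ob thus met the filter of 10 counts in 4 libraries only through the knockouts, where it was high. No conclusion is drawn from this p. Without Adipoq-F2-KO library 2, the highest of the knockouts, it was 0.69 (unadjusted DESeq2 p 0.428). The adjusted p of H2-Ob ranged from 0.0386 to 1.00 over the alternatives.

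**Figure D1:**
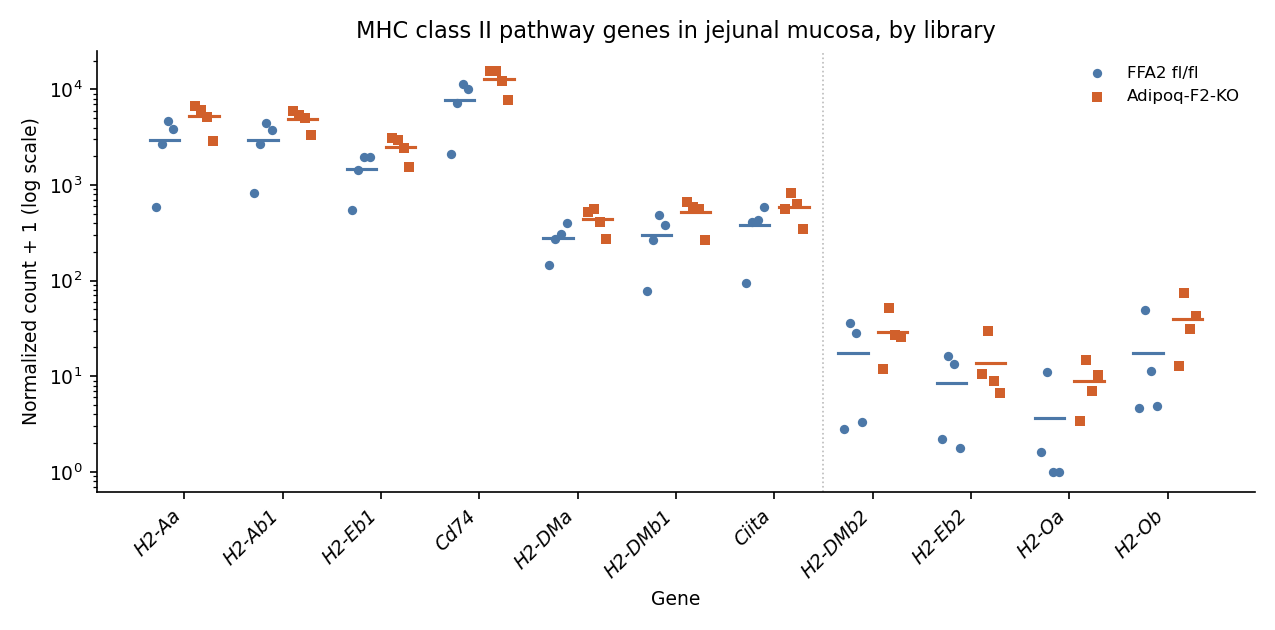
Normalized count plus 1 on a log scale (vertical) for each gene (horizontal), with 1 point per library, circles for FFA2 fl/fl and squares for Adipoq-F2-KO, libraries 1 to 4 from left to right in each group, and bars at the group means. Floxed library 1 is the lowest point for the 7 genes left of the dotted line, 3 Adipoq-F2-KO libraries lie above all floxed libraries for each of them except Ciita, and the 4 genes at the right peak in library 2 of both genotypes.

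The comparison between genotypes asked whether the loss of FFA2 in adipocytes came with a different class II level in the gut. All 8 tested genes had a higher mean in Adipoq-F2-KO mice, with log2 fold changes of 0.64 to 0.82 and a median of 0.76, against a median of -0.01 over all 15986 tested genes, of which 48.5% were higher. None of the 8 passed the adjusted threshold of 0.05 in DESeq2, where the background was 6 genes of 15986 (0.0375%), and each had an adjusted p of 0.9998. At an unadjusted p below 0.05, 1 of the 8 passed, H2-DMa, against 485 of all tested genes (3.03% in both directions, and 1.65% for genes higher in Adipoq-F2-KO mice). With edgeR's quasi-likelihood test 0 of the 8 passed either threshold, against 557 of all tested genes (3.48%) at the unadjusted and 2 at the adjusted one, and the unadjusted p of H2-DMa was 0.053. The next smallest unadjusted p values in DESeq2 were 0.0854 for H2-Eb1 and 0.133 for H2-Ab1. The genotypes overlapped for every one of the 10 genes, whereas 2.12% of all tested genes had no overlap between genotypes. The genes share libraries and vary together, so their common direction is not 8 separate observations. Fitted without the filter on low counts, H2-Oa had a log2 fold change of 1.43 (unadjusted p 0.228) and H2-Eb2 of 0.88 (unadjusted p 0.328).

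The size of the difference depended on floxed library 1. Summed over the 10 genes, the normalized count was 4402 in that library, 15114 to 23787 in the other floxed libraries and 16422 to 33072 in the Adipoq-F2-KO libraries, which is 0.0381% of all counts in floxed library 1 and 0.132% to 0.287% elsewhere. Without floxed library 1, all 8 tested genes were still higher in Adipoq-F2-KO mice, but the median log2 fold change was 0.45 instead of 0.76. H2-Ab1 then had a log2 fold change of 0.45 (unadjusted DESeq2 p 0.0419) and H2-Eb1 of 0.49 (unadjusted p 0.0359), while H2-DMa was no longer past the unadjusted threshold (p 0.0778). In that fit 323 of all tested genes (2.11%) passed the unadjusted threshold and 0 of the 8 class II genes the adjusted one. Without floxed library 3, the one with the most smooth muscle RNA, the median was 1.00, and within the 5 libraries of at least 10000000 counts, which hold floxed 1 and only 2 Adipoq-F2-KO mice, it was 1.23 over 7 genes. The 3 shallow libraries hold 1 floxed control and 2 Adipoq-F2-KO mice, too few for a comparison among themselves.

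**Figure D2:**
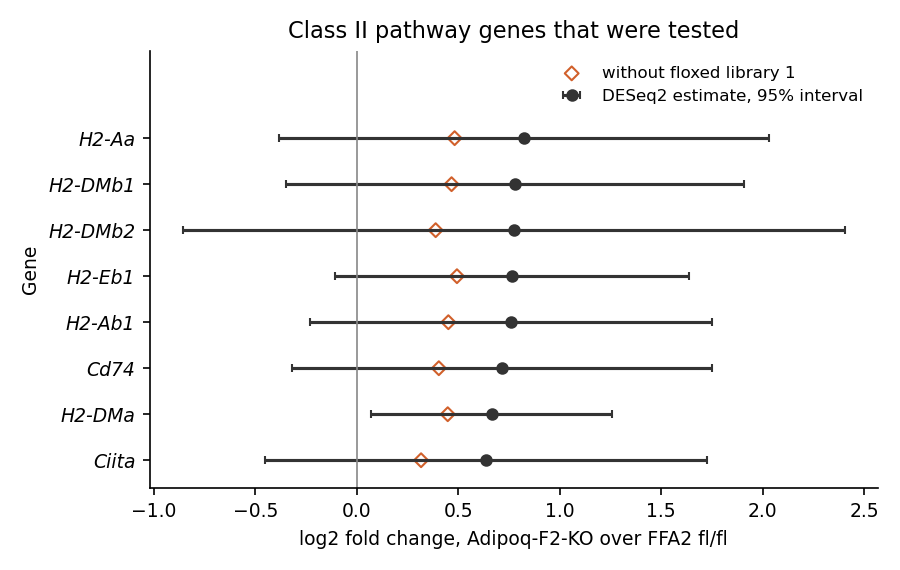
Log2 fold change of Adipoq-F2-KO over FFA2 fl/fl (horizontal) for the 8 tested class II genes (vertical), as DESeq2 estimates with 95% intervals over 4 libraries per genotype, and as open diamonds the estimates without floxed library 1. All estimates lie right of 0, from 0.64 to 0.82, the interval excludes 0 for H2-DMa only, and the diamonds lie between 0.32 and 0.49.

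Ciita and H2-Ab1 varied together. Over the 8 libraries their log2 levels correlated with a Pearson's r of 0.95 (exact permutation test over all pairings, two-sided, p = 0.00506, BH-adjusted over 7 relations 0.0354). Spearman's rho was 0.79 (exact permutation p = 0.0279, adjusted 0.195), so the rank relation did not hold after adjustment. Without floxed libraries 1 and 2, the 2 farthest from the median H2-Ab1 level, r was 0.68 over 6 libraries, so the strength of the relation rested in part on them. The other 6 relations of H2-Ab1 did not pass, with adjusted p for r of 0.267 to 0.764 by the same exact test. Among them, r was 0.62 for Cd3e of T cells, 0.49 for Flt3 of dendritic cells and 0.31 for Cd79a of B cells. It was 0.09 for C1qa of macrophages, 0.51 for Epcam of epithelium and 0.36 for Acta2 of smooth muscle. Without the same 2 libraries these 6 lay between -0.23 and 0.33. Exact permutation p for rho in these 6 relations, adjusted, lay between 0.402 and 0.977.

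**Figure D3:**
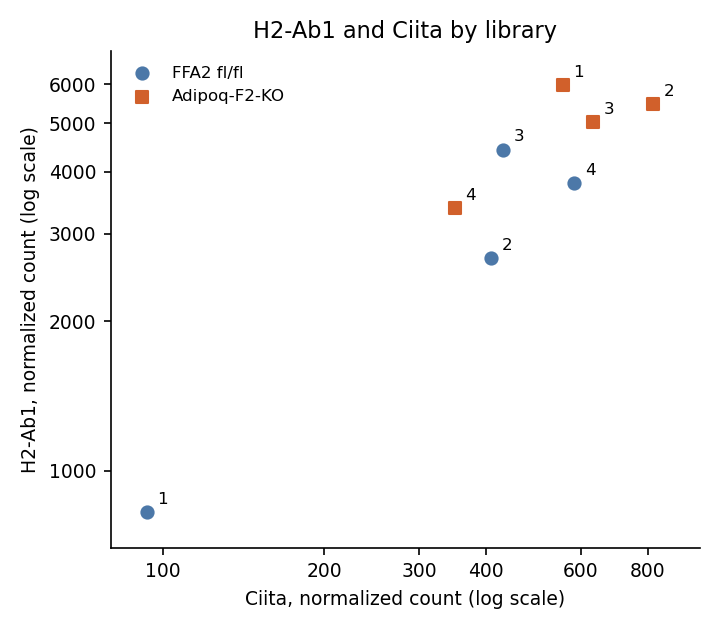
Normalized count of H2-Ab1 (vertical, log scale) against that of Ciita (horizontal, log scale), with 1 point per library, numbered by replicate, circles for FFA2 fl/fl and squares for Adipoq-F2-KO. Floxed library 1 lies alone at 93.3 for Ciita and 824.5 for H2-Ab1, and the other 7 libraries lie between 350 and 819 for Ciita.

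The factors that Ciita joins on the promoter did not share its range. The 7 genes of RFX, NF-Y and CREB (Rfx5, Rfxank, Rfxap, Nfya, Nfyb, Nfyc and Creb1) summed to normalized counts of 1782 to 2156 in all 8 libraries, a 1.21-fold span against 7.51-fold for the class II genes. Of the 7, 5 were higher and 2 lower in Adipoq-F2-KO mice, 0 passed the unadjusted or the adjusted threshold in DESeq2, and the median log2 fold change was 0.07. Nfya, a subunit of NF-Y, had the smallest p, with a log2 fold change of -0.22 and an SE of 0.13 (unadjusted p 0.0977).

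Genes of the interferon gamma response, the pathway that turns on Ciita in epithelium, were read next. Of 11 tested genes, 8 had a higher and 3 a lower mean in Adipoq-F2-KO mice, with a median log2 fold change of 0.15. At an unadjusted DESeq2 p below 0.05, 3 passed upward, and 0 passed the adjusted threshold. The background at the unadjusted threshold was 3.03% of all tested genes, and 1.65% upward, as for the lists that follow over all 8 libraries. The 3 lower genes were Cxcl10 at a log2 fold change of -0.22 (SE 0.48), Ifngr2 at -0.05 and Irf8 at -0.01. Without floxed library 3, 1 of the 11 passed the adjusted DESeq2 threshold, the interferon-induced GTPase gene Gbp2, as did 108 genes in all. Cxcl9, a chemokine induced by interferon gamma, was at 8.48, 16.3, 25.1 and 8.51 in the 4 controls and at 26.8, 49.0, 32.0 and 30.1 in the 4 knockouts. The genotypes did not overlap for Cxcl9, and its log2 fold change was 1.36 with an SE of 0.44 (unadjusted DESeq2 p 0.00201, adjusted 0.742). Irf1, a transcription factor that acts on the Ciita promoter, was at 1040, 1099, 1637 and 1644 in the 4 controls and at 1675, 1938, 1750 and 1842 in the 4 knockouts, again without overlap (log2 fold change 0.41, SE 0.17, unadjusted p 0.0161, adjusted 0.9998). With 1 library left out in turn, Cxcl9 stayed past the unadjusted threshold each time, and Irf1 missed it without floxed library 1 or 2 or Adipoq-F2-KO library 2 (unadjusted p 0.0614, 0.0687 and 0.0508). Ifng itself had 7 counts over all libraries and was not tested, and the receptor gene Ifngr1 differed by 0.00 on the log2 scale.

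Other steps of antigen presentation were covered by 4 further lists. Of 9 lysosomal enzymes and inhibitors that process antigen (among them Ctss, which trims the invariant chain), 4 were higher and 5 lower, with 0 past either threshold in DESeq2 and a median of -0.01 on the log2 scale. Lgmn, an endopeptidase, had the smallest p of them (log2 fold change 0.29, SE 0.22, unadjusted p 0.191). Its value rested on Adipoq-F2-KO library 4, without which it was 0.06, and it was 0.04 in the 5 deeper libraries and 0.43 (unadjusted DESeq2 p 0.0409) without Adipoq-F2-KO library 1. Of 3 genes that set class II turnover (Marchf1, Marchf8 and Cd83), 3 were higher and 0 passed either threshold, with Marchf1, a ubiquitin ligase for class II, at 0.72 (SE 0.55, unadjusted p 0.186). Without floxed library 2 Marchf1 was at 1.40 (unadjusted DESeq2 p 0.00863), and without floxed library 1 or 4 it was at 0.50 or 0.49 and did not pass. Of 5 tested costimulatory genes and class II receptors, 4 were higher, 2 of them past the unadjusted and 0 past the adjusted threshold. Those 2 were Cd274, which encodes PD-L1, at a log2 fold change of 1.18 (SE 0.43, unadjusted p 0.00647) and Cd4, the coreceptor of class II, at 1.10 (SE 0.38, unadjusted p 0.00367, adjusted 0.976). Cd4 was at 18.6 to 39.5 in the 4 controls and at 33.2 to 77.1 in the 4 knockouts.

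Of the 13 class I presentation genes, 12 were higher and 1 lower, with 3 past the unadjusted and 0 past the adjusted threshold and a median of 0.21. Class I presentation loads peptides from inside the cell, and its transactivator Nlrc5 is a relative of Ciita. Nlrc5 had a log2 fold change of 0.76 (SE 0.37, unadjusted p 0.0397), Psmb9 of 0.52 (SE 0.23, unadjusted p 0.0233) and Psmb10 of 0.29 (SE 0.12, unadjusted p 0.0209), the last 2 being subunits of the immunoproteasome. These calls rested on single libraries. Without floxed library 1, and likewise without Adipoq-F2-KO library 2, 0 of the 13 passed the unadjusted threshold, against 2.11% and 3.51% of all tested genes. With floxed library 4 left out 1 passed, against 1.78% of all tested genes. With floxed library 2 or 3 left out 5 passed, against 3.05% and 8.29% of all tested genes. Without Adipoq-F2-KO library 2 the log2 fold change was 0.35 for Nlrc5, 0.30 for Psmb9 and 0.19 for Psmb10. Psmb9 shares 212 exonic bases with Tap1 on the other strand. The summed class I level spanned 1.48-fold between libraries, far less than the class II sum.

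Marker levels of the cell types that carry class II moved with parts of these results. B cell markers (12 genes) summed to 79.97, 674, 220 and 59.6 in floxed libraries 1 to 4 and to 283, 961, 318 and 690 in Adipoq-F2-KO libraries 1 to 4, so library 2 was the highest of each genotype. All 11 tested B cell genes were higher in Adipoq-F2-KO mice, with a median log2 fold change of 1.15 and 0 past either threshold in DESeq2. This rested on floxed library 2. Without it, 9 of 9 tested B cell genes passed the unadjusted threshold, against 3.05% of all tested genes, with a median of 2.71. The adjusted threshold was passed by 4 of them (Ms4a1, Cr2, Cd22 and Bank1) and by 18 genes in all. These 4 had at most 14 raw counts in the remaining controls and at least 15 in every knockout. They thus met the filter on counts through the knockouts, where they were high, and no conclusion is drawn from these calls. Without Adipoq-F2-KO library 2 the median was 0.77, again with 0 past either threshold. Fcer2a, the low-affinity IgE receptor of B cells, had the smallest p (log2 fold change 1.06, SE 0.63, unadjusted p 0.0911). H2-DMb2, H2-Eb2, H2-Oa and H2-Ob were all highest in those same libraries. None of the 7 more abundant class II genes was highest of the controls in floxed library 2, but Cd74, H2-DMa and Ciita were highest in Adipoq-F2-KO library 2. Floxed library 4 held the lowest B cell sum and the lowest macrophage sum (184) of all 8 libraries, with Pax5 at 0 counts, and had a class II sum of 21215, the second of the floxed libraries.

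Macrophage markers (10 genes) summed to 184 to 492 in the floxed and 329 to 622 in the Adipoq-F2-KO libraries, and 9 of 9 tested were higher, with 0 past either threshold and a median of 0.47. Their leading gene by p was C1qc (log2 fold change 0.80, SE 0.43, unadjusted p 0.0643). Without floxed library 2 the macrophage median was 0.84, with 8 of 9 higher and 3 past the unadjusted threshold, against 3.05% of all tested genes. With floxed library 4 left out the macrophage median was 0.26 with 0 past that threshold, against 1.78% of all tested genes. Dendritic cell markers (10 genes) summed to 118 to 182 in the floxed and 182 to 252 in the Adipoq-F2-KO libraries. Of 5 tested, 5 were higher, with a median of 0.59, and 1 passed the unadjusted and 0 the adjusted threshold. It was Clec9a, a receptor of cross-presenting dendritic cells, at 5.42 to 8.48 and at 10.3 to 20.7 (log2 fold change 1.07, SE 0.49, unadjusted p 0.0306), and its unadjusted p ranged from 0.0241 to 0.0901 with 1 library left out in turn. Raw counts of Xcr1 and Batf3 were near 0, with at most 14 and 5 in any library. Among other dendritic cell markers, Flt3 had 5 to 24 raw counts, Zbtb46 10 to 56 and Itgax 56 to 204, and none of these 3 passed either threshold in DESeq2. Floxed library 1 had the lowest dendritic cell sum (118) and the lowest T cell sum (1094), and Adipoq-F2-KO library 4, the lowest of its genotype for the class II sum, had the highest dendritic and macrophage sums. T cell markers (10 genes) summed to 1094 to 2014 and to 1295 to 1881, with 8 of 10 higher and 1 past the unadjusted threshold, Cd2 (log2 fold change 1.35, SE 0.60, unadjusted p 0.0242). Cd2 missed that threshold without floxed library 1 or 4 (unadjusted p 0.0893 and 0.0769) and had too few counts to be tested when floxed 2 or any of Adipoq-F2-KO 2, 3 and 4 was left out, and the T cell median was 0.29, or 0.12 to 0.44 with 1 library left out. Plasma cell markers (7 genes) summed to 823 to 3266 and to 1484 to 2567. Of 5 tested, 4 were higher, led by Sdc1 (log2 fold change 0.19, SE 0.11, unadjusted p 0.0834). Of the 8 genes for innate lymphoid cells and follicles, 2 were tested and 1 was higher, Ltb (log2 fold change 0.69, SE 0.44, unadjusted p 0.121).

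Epithelial and muscle content were read in the same way. Villus enterocyte markers (10 genes) spanned 1.28-fold between libraries, with 6 higher and 4 lower and a median of 0.07, and Sis, sucrase-isomaltase, had a log2 fold change of 0.16 (SE 0.08, unadjusted p 0.0598). Smooth muscle markers (8 genes) spanned 77.8-fold, and 8 of 8 were lower in Adipoq-F2-KO mice with a median of -0.94 and 0 past either threshold. The direction rested on floxed library 3, with a summed level of 20797. Without it, 7 of 8 were higher, with a median of 1.15, and Tagln was at -0.09, again with 0 past either threshold. The median sum was 1950 for the 4 controls and 2548 for the 4 knockouts. Tagln, an actin-binding protein of smooth muscle, had the smallest p of them (log2 fold change -0.78, SE 0.61, unadjusted p 0.198). Floxed libraries 1 and 4 had similarly low smooth muscle sums (267 and 301) and class II sums of 4402 and 21215. The part of these cell type levels in the class II differences was not tested. With both libraries numbered 2 left out, the median log2 fold change of the 8 class II genes was 0.65 and 0 of them passed an unadjusted p of 0.05.

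**Figure D4:**
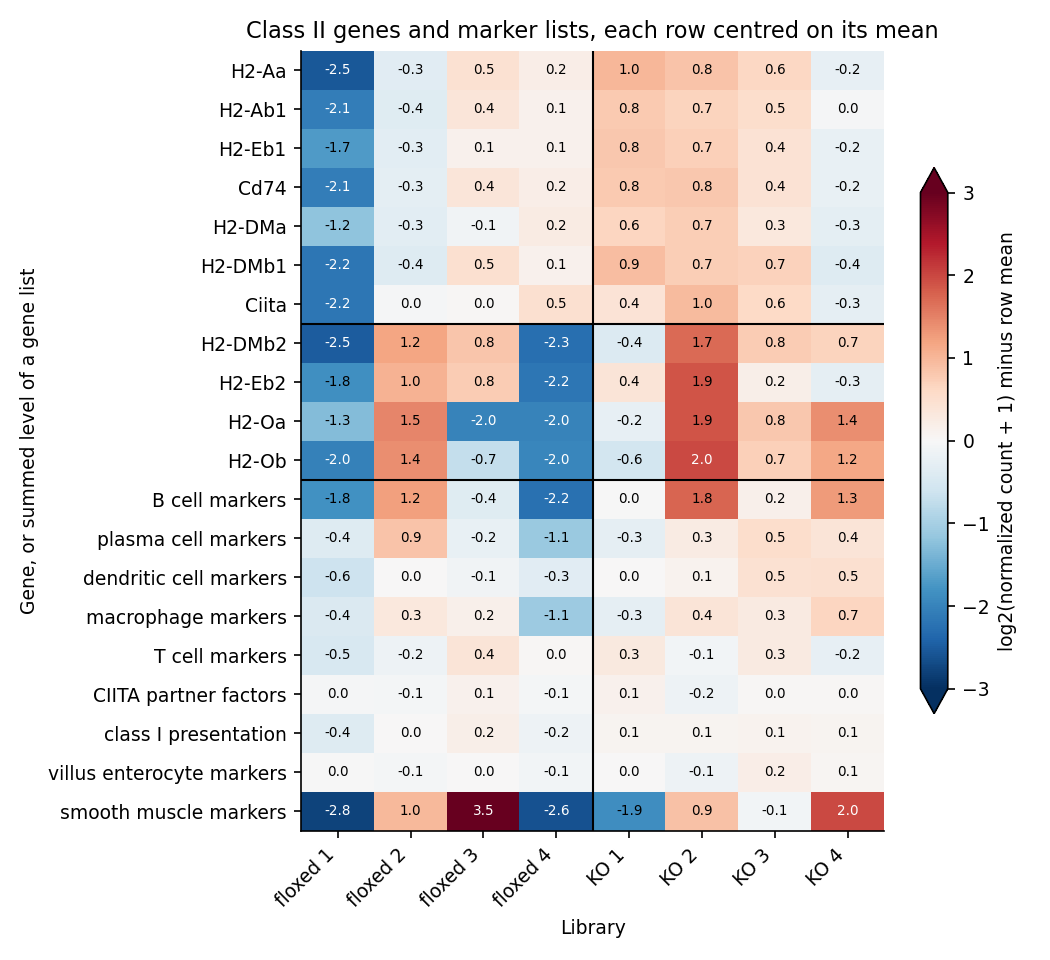
Log2(normalized count + 1) minus the mean of its row, as color and number, for the class II genes and H2-Ob (upper rows) and for summed marker lists (lower rows) in each library (columns, FFA2 fl/fl left of the line and Adipoq-F2-KO right of it). The upper block is lowest in floxed library 1 at -1.2 to -2.5, and the middle block of H2-DMb2, H2-Eb2, H2-Oa and H2-Ob is lowest in floxed libraries 1, 3 or 4 and highest in Adipoq-F2-KO library 2, as are the B cell markers. Colors stop at 3 and -3.

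The 8 tested genes were compared with one another and with the rest of the genome by the likeness of their profiles over the 8 libraries, given as a description. Each of H2-Aa, H2-Ab1, H2-Eb1, Cd74, H2-DMa, H2-DMb1 and Ciita correlated with the mean of the other tested members at r = 0.91 to 0.98, and H2-DMb2 at 0.56. Among 10218 other tested genes with a mean normalized count of at least 50, the 10 most like the class II mean were Myo1g, Zfp831, Stk24, Epb41l3, P2rx7, Tlr3, Prkci, Rfesd, Ubd and Med9, with r from 0.95 down to 0.91. All of them share the low value of floxed library 1 with the class II genes, and most differed little between genotypes (log2 fold changes of 0.07 to 0.35 for 9 of the 10). Ubd was the exception at 1.04 (SE 0.83, unadjusted p 0.210). It encodes FAT10, a ubiquitin-like protein induced by interferon gamma, and was at 30.9, 213, 510 and 76.6 in the 4 controls and at 450, 620, 430 and 203 in the 4 knockouts. Of the interferon and class I genes described above, Nlrc5 ranked 121 of 10218 (r = 0.78) and Irf1 132 (r = 0.78).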

How the data were processed

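Reads were trimmed with Trimmomatic, aligned with STAR and counted per gene with featureCounts by the authors, on GRCm38/mm10 per the submitters' processing notes. The deposited values are raw counts per Ensembl gene, 1 set per library, neither normalized nor pooled. Libraries were polyA-selected with a stranded kit and read from 1 end over 75 bases. Software versions, annotation release and strand setting are not given in the sources used here. Symbols, exonic lengths and positions came from GENCODE M21, which named 52073 of 56980 identifiers, all 10 class II genes among them. Total counts ranged from 6007654 to 21712776 per library. Fold changes and their errors cover the spread between these libraries, each from 1 mouse as far as the labels tell, and a raw count of 3 was the floor.

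A gene was tested where 4 or more libraries had 10 or more counts of it. DESeq2 1.42.0 (R 4.3.3) was fitted with genotype as the only term, because the study used it, and its two-sided Wald p-values were adjusted over all tested genes by the Benjamini-Hochberg (BH) procedure. Alternatives were edgeR 4.0.16 (quasi-likelihood), TMM factors, no filter on low counts, a block for the replicate number, the 5 deeper libraries, each library left out in turn and, chosen after seeing the data, both libraries numbered 2 left out. Correlations used log2(normalized count + 1). The fits were tested on simulated data. The 12 pairs of libraries within a genotype differed by a chi-square of 5.24 to 59.0 per gene, so none was a duplicate.

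The class II genes and all lists were chosen with earlier results of these data known. The text names the 10 class II genes, up to 3 genes per further list with the smallest unadjusted p below 0.05 and otherwise the 1 with the smallest p, the 10 genes most like the class II mean, the 7 genes of the correlations and Ffar2. Values of H2-Ob, H2-Ea, Brd2, Dexi, Ubd by library, Ifng, Ifngr1, Ifngr2, Irf8, Cxcl10, Gbp2, Ms4a1, Cr2, Cd22, Bank1, Pax5, Xcr1, Batf3, Zbtb46 and Itgax lie outside this rule and were chosen after values were seen. Results for some genes of the rule are not reported here.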

Additional observations from a re-analysis of the deposited data

Results flagged for a closer look

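In 31 genes screened in each genotype (62 groups of 4 libraries), the gap between the most distant library and the next, divided by the range of the group, was above Dixon's 95% critical value for 4 samples in 3 groups, and chance flags about 1 in 20 groups. H2-Oa in floxed controls had a normalized count of 10.0 in library 2 and 0 to 0.606 in the other 3. H2-Ob in floxed controls stood at 48.5 in library 2, with the others between 3.63 and 10.5. In the Adipoq-F2-KO mice, H2-Eb2 was at 28.5 in library 2 against 5.64 to 9.47. All 3 values come from the libraries with the highest B cell marker sum of their genotype, and all 3 genes had fewer than 120 raw counts in any library.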

How the results depend on the processing

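All 8 tested class II genes were higher in Adipoq-F2-KO mice under each of the 14 alternatives in which they were tested (111 values, 0 reversed), and 0 of the members passed the adjusted threshold under any. At the unadjusted threshold, H2-DMa alone passed with TMM factors, with no low-count filter and in the 5 deeper libraries. The count was 0 with edgeR, 0 with both libraries numbered 2 left out, and 0 to 2 when each library was left out in turn. Over all tested genes, 485 passed the unadjusted threshold, 888 in the 5 deeper libraries, 317 without both libraries numbered 2 and 276 (without floxed 4) to 1310 (without floxed 3) when 1 library was left out. The adjusted threshold was passed by 6 genes, by 2 with edgeR, by 3 with no low-count filter, by 81 in the 5 deeper libraries and by 1 (without floxed 1) to 108 (without floxed 3) with 1 library left out. The cause of these shifts was not tested.

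With the replicate number as a block, 2 class II genes (H2-DMa and H2-DMb2) passed the unadjusted threshold, and 434 genes passed it in all, with 11 past the adjusted one. Library numbers come from the sample titles, the count documents named in the sample descriptions carry other numbers for 6 of the 8 libraries, and no label says that a number marks a shared litter or day. The numbers therefore do not pair the samples by design, and the alternative without both libraries numbered 2 joins libraries that share only a title number. Taken by title, deviations of same-numbered libraries from their group means correlated at 0.54, 0.29, 0.01 and -0.42 for numbers 1 to 4. Under the block 10 of 11 B cell markers passed the unadjusted threshold and 0 the adjusted one, and 7 of 8 smooth muscle markers were higher in Adipoq-F2-KO mice, with a median of 0.57. The H2-Ab1 correlations stayed on the same side of their threshold with TMM-scaled counts and with a pseudocount of 5. Low counts limit what can be said of H2-Oa, H2-Eb2 and H2-DMb2.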
